A study of Xenopus tropicalis with 12 samples.

Results

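The comparison concerns where thyroid hormone receptor (TR) was found on chromatin without added hormone, in the intestine of wild-type (WT) and TRα knockout (TRα-/-) Xenopus tropicalis tadpoles at stage 54. It uses the 6 control libraries of the 12 in the series, 3 WT and 3 TRα-/-. Overlapping peaks of these 6 libraries (minimum 1 bp) were merged, which gave 188533 regions. A region was called WT-only when all 3 WT control libraries and no TRα-/- control library had a peak there, TRα-/--only in the opposite case, and shared when all 6 had a peak. This gave 544 WT-only regions, or 0.289% of the joined regions, 94 TRα-/--only regions, or 0.0499%, and 5364 shared regions, or 2.85%. Both genotypes were offspring of the same parents. Chromatin was immunoprecipitated (ChIP) with a polyclonal antibody that recognizes TRα and TRβ, so peaks in the TRα-/- libraries can come only from TRβ or from signal other than TR. The other 6 libraries, 3 WT and 3 TRα-/-, came from stage 54 tadpoles kept in 10 nM T3, the active thyroid hormone, for 18 h, and took no part in choosing the regions. The 3 libraries of a condition were technical replicates of 1 ChIP DNA sample. Every error and p-value therefore measures technical spread alone, and differences between genotypes cannot be told apart from differences between 2 ChIP samples.

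TRs are nuclear receptors that bind thyroid hormone response elements as heterodimers with the retinoid X receptor. Without hormone they recruit corepressor complexes and hold target genes down, and with T3 they recruit coactivators. In the tadpole intestine TRα is the main receptor before metamorphosis, while the TRβ gene is itself a target that T3 switches on.

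The WT control libraries had 34644, 44694 and 63333 peaks and the TRα-/- control libraries 44196, 38961 and 42458. The number of reads per library is unknown. The lowest background level implied by pileup and fold enrichment, a value that rises with read depth, differed between libraries. It was 0.090, 0.279 and 0.426 in WT control replicates 1, 2 and 3 and 0.118, 0.260 and 0.252 in the TRα-/- control replicates. The part of depth in missing peaks was not tested. Most joined regions had a peak in 1 library: 83464 were found in a single WT library and 74712 in a single TRα-/- library. Whole libraries were compared by 5 measures, with 0.1 as the smallest p that 3 libraries against 3 allow, so no measure could pass 0.05. The median peak width was 237 ± 31.6 bp in WT and 218 ± 32.9 bp in TRα-/- (SD, n = 3, exact permutation test, two-sided, p = 0.5, adjusted p = 0.75 over 5 measures). The share of peaks within 1 kb of a gene start was 5.25% ± 0.0654 in WT and 5.15% ± 0.0417 in TRα-/- (SD, n = 3, exact permutation p = 0.2, adjusted p = 0.75). The other positions had exact permutation p-values from 0.6 to 0.9. With only peaks of a −log10 q-value of at least 5, the libraries of the genotypes did not overlap in the share at gene starts, lower in TRα-/- (difference -0.448 percentage points), or in the share farther than 5 kb from genes, higher in TRα-/- (1.07 percentage points; exact permutation p = 0.1 for each, adjusted p = 0.25).

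Most reproducible WT regions were found again without TRα. Of the 8877 regions with a peak in all 3 WT control libraries, 60.4% had a peak in all 3 TRα-/- libraries and 6.13% had none there. Of the 7369 regions with a peak in all 3 TRα-/- libraries, 72.8% had a peak in all 3 WT libraries and 1.28% had none. WT-only regions thus outnumbered TRα-/--only regions. They did so too when each library gave only its 34644 strongest peaks, with 499 against 95 regions, and when only peaks with a −log10 q-value of at least 5 were kept, with 245 against 23. The counts depended on the number of libraries required. With 2 of 3 libraries sufficient for both genotypes there were 4224 WT-only and 1746 TRα-/--only regions. Leaving out a library makes the rule unequal, since 2 libraries are then required of its genotype and 3 of the other. Regions of the other genotype then also need to lack a peak in only 2 libraries in place of 3. Both classes are thereby loosened. With a library left out, WT-only and TRα-/--only regions numbered 2639 and 121 without WT control replicate 1, 1558 and 191 without replicate 2, and 1128 and 361 without replicate 3. Without TRα-/- control replicate 1 they were almost as frequent, with 761 and 668 regions. They numbered 967 and 606 without TRα-/- replicate 2, and 965 and 663 without replicate 3.

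WT-only regions were mostly lower peaks than shared regions. The height of a peak is given by its pileup, the number of overlapping fragments at its summit, which the peak caller did not scale to library size. Peaks were therefore also ranked by pileup within their library, and a region's strength is the median percentile of its highest peak over the 3 libraries of a genotype. The median pileup of WT-only regions was 3, 7 and 8 in WT replicates 1, 2 and 3, against 7, 15 and 22 for shared regions in the same libraries. TRα-/--only regions had a median pileup of 3.5, 6 and 6 in the TRα-/- libraries, where shared regions had 7, 12 and 12. The median strength was the 68.8th percentile for WT-only regions and the 92.2nd for shared regions. Regions just outside the rule, with all 3 WT libraries and 1 TRα-/- library, numbered 1066 and had a median strength at percentile 73.5.

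The share of WT regions without any TRα-/- peak fell with strength up to the 99th percentile and was higher again in the strongest bin. It was 27.2% of 353 regions below the 50th percentile, 7.66% of 1306 between the 70th and 80th, and 1.92% of 1618 between the 95th and 99th. Among the 422 strongest WT regions, above the 99th percentile, 18 regions or 4.27% had no peak in any TRα-/- control library, 16 had a peak in 1 or 2, and 388 had a peak in all 3. The same bins of TRα-/- regions ran from 6.69% of 329 down to 0.0726% of 1377, and none of the 389 strongest lacked a WT peak. The highest pileup of any TRα-/--only region was 20, whereas WT-only regions reached 847. The 18 regions were a description of peaks chosen for their absence in TRα-/-, and no test was made of their number.

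**Figure D1:**
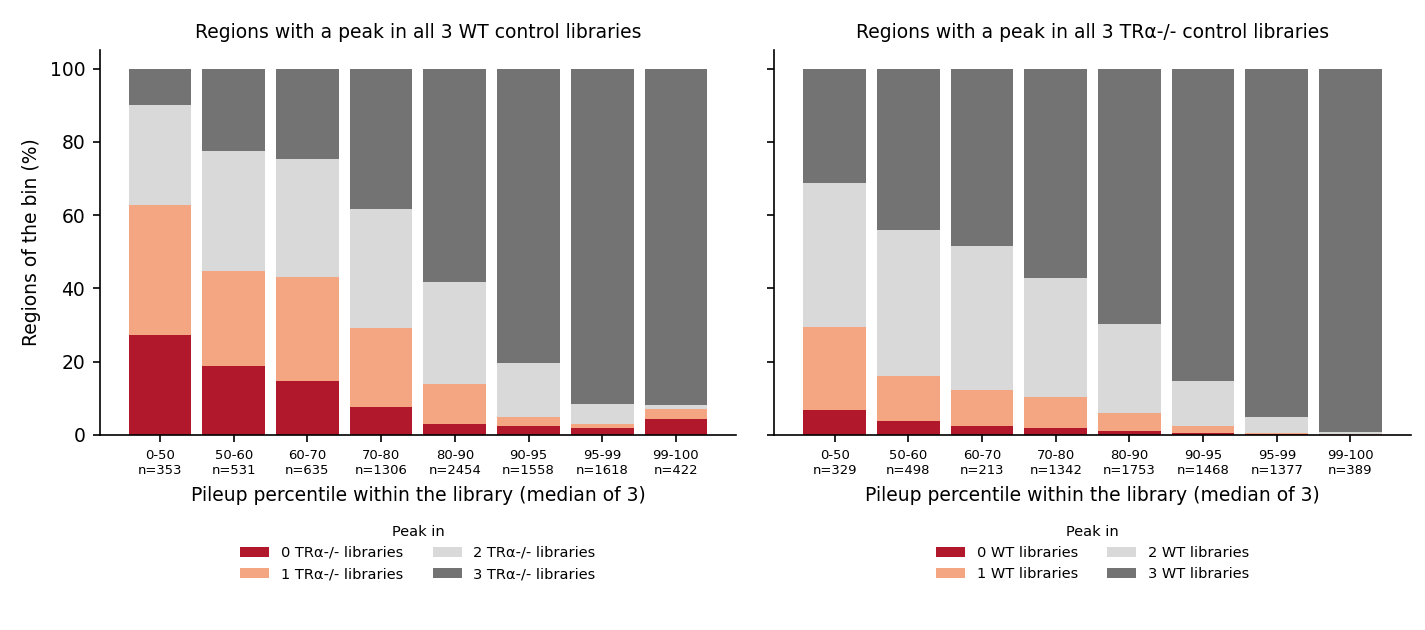
Share of regions (y axis, percent) by the strength of the region (x axis, percentile of its pileup within the library, median of 3 libraries), split by how many libraries of the other genotype also had a peak. Left, regions with a peak in all 3 WT control libraries; right, regions with a peak in all 3 TRα-/- control libraries. The strongest WT bin holds 18 of 422 regions without any TRα-/- peak, and the strongest TRα-/- bin holds 0 of 389 without any WT peak.

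The highest WT-only region lay inside pdia4, which encodes a protein disulfide isomerase of the endoplasmic reticulum, on chromosome 6 from 82790518 to 82790772 (Xenbase v9.1, outside the listed exons). Its pileup was 188, 499 and 847 in the WT control libraries, which ranked it 29th, 25th and 21st of all peaks there, and no TRα-/- control library had a peak. With T3 its pileup was 154, 399 and 341 in the WT libraries and 14, 16 and 27 in the TRα-/- libraries. The region was thus high in all 6 WT libraries of the series, and listed at a far lower height in TRα-/- with T3. The next highest lay inside lrfn2, which encodes a synaptic adhesion protein, on chromosome 5 from 1060187 to 1061079. It had 80, 271 and 457 in WT control, no TRα-/- control peak, 61, 166 and 169 in WT with T3, and 8 and 13 in TRα-/- T3 replicates 1 and 3.

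Several strong WT-only regions had no TRα-/- peak in the T3 libraries either. The 5 strongest with a peak in all 6 WT libraries and in none of the 6 TRα-/- libraries lay at gpsm1, herc2, ccdc13, rfx1 and arhgap31. At gpsm1, which encodes a modulator of G-protein signaling (chromosome 2, 81772483 to 81772990, inside the gene), the pileup was 53, 169 and 222 in WT control and 50, 86 and 95 in WT with T3. At herc2, which encodes a ubiquitin ligase (chromosome 2, 111067107 to 111067317, inside the gene), it was 60, 147 and 224 without and 48, 92 and 94 with T3. The region 4180 bp downstream of ccdc13 (chromosome 6, 2555252 to 2555698) had 65, 145 and 204 without and 44, 109 and 103 with T3. These regions were chosen for a peak in every WT library and in no TRα-/- library of the series. Of the 544 WT-only regions 76 had this pattern, and of the 18 above the 99th percentile 6 had it. The values at rfx1, which encodes a transcription factor of the RFX family (chromosome 3, 129889890 to 129890218), were 47, 110 and 180 without and 26, 76 and 82 with T3. At arhgap31 (chromosome 2, 2374743 to 2375542, inside the gene), they were 40, 97 and 157 without and 31, 64 and 53 with T3.

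The other 3 of the 10 strongest lay inside inpp5a.1 (an inositol polyphosphate phosphatase gene) and reps1 (an endocytosis adaptor gene) and at the start of pitx1 (a homeobox gene of the hindlimb). The inpp5a.1 region (chromosome 7, 12447957 to 12448218) had 71, 104 and 114 in WT control, and TRα-/- peaks of 15, 17 and 21 with T3. The reps1 region (chromosome 5, 65336809 to 65337312) had 41, 103 and 139 in WT control and a single TRα-/- peak of 4, in T3 replicate 3. The pitx1 region (chromosome 3, 16854892 to 16855360) overlapped the first position of the gene and a listed exon. Its pileup was 26, 91 and 117 in WT control and 21, 39 and 48 in WT with T3, and TRα-/- T3 replicate 2 alone had a TRα-/- peak there, of 3.

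The remaining 8 of the 18 were named after their values were seen. They lay inside abr, kissr1b (a kisspeptin receptor gene), wdr7 and igf1r (the insulin-like growth factor receptor), 896 bp from the start of prim2 (a subunit of DNA primase), in the flank of a gene without a symbol 69683 bp from kcng1, and 10244 bp and 139650 bp from dnaja4.2 and hpn. Their pileup in the WT control libraries was between 17 and 114. The region near dnaja4.2 (chromosome 8, 111044211 to 111044918) had 38, 55 and 86 in the WT control libraries and no peak in any of the 6 T3 libraries, of either genotype. It was the only one of the 18 without a T3 peak. Of the 18, 13 had a peak in all 3 WT T3 libraries, 10 had none in any TRα-/- T3 library, and 2 had a peak in all 3 TRα-/- T3 libraries.

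**Figure D2:**
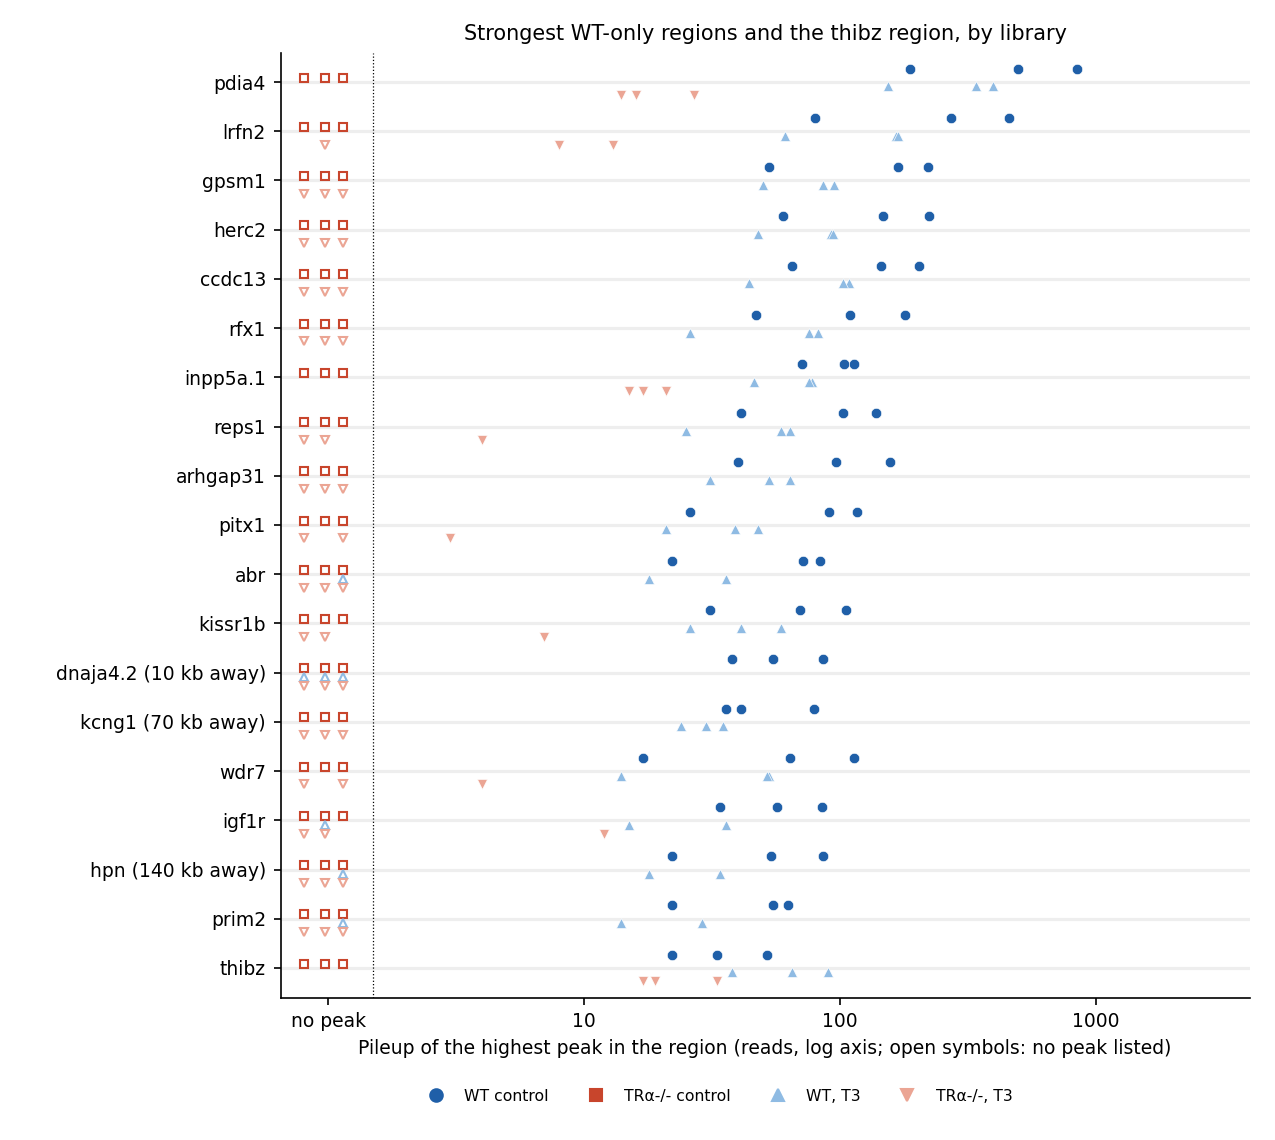
Pileup of the highest peak in the region (x axis, log scale, fragments) in each of the 12 libraries for the 18 strongest WT-only regions and the thibz region (y axis, nearest gene with a symbol). Each symbol is a library, and open symbols left of the dotted line mark libraries with no peak listed. The WT control libraries lie between 17 and 847 and the TRα-/- control libraries have no peak in any row, as the rule requires; pdia4, inpp5a.1 and thibz alone have peaks in all 3 TRα-/- T3 libraries.

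The strongest WT-only regions were narrow. Their highest peak had a median width of 292.5, 337 and 328.5 bp in WT replicates 1, 2 and 3, against 794.5, 900.5 and 937.5 bp for the 388 shared regions of the same strength. Peaks under 500 bp made up 16, 14 and 14 of the 18, and 21.6%, 14.7% and 12.4% of the 388. At similar height the strong WT-only peaks were therefore narrower than the shared peaks in each of the 3 WT libraries. The rule itself favours narrow WT-only regions, since no TRα-/- peak may touch them, and its part was not tested. Lower width was not particular to the strongest bin. Between the 95th and 99th percentile the median region width was 273 bp for WT-only and 926 bp for shared regions. Of the 18 regions, 2 lay within 1 kb of a gene start, 12 elsewhere inside a gene, 2 within 5 kb of a gene and 2 farther away. Of the 388 shared regions, 34.3% lay inside a gene and 45.6% farther than 5 kb from any.

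A further 16 of the 422 strongest WT regions kept a peak in 1 or 2 TRα-/- control libraries, and some of these were higher than any WT-only region. The examples were chosen after their values were seen. The highest lay 16312 bp from adgrl3, a latrophilin receptor gene (chromosome 1, 71652842 to 71653056), with 818, 1518 and 1802 in WT control and 17 in TRα-/- replicate 2 alone. With T3 it had 580, 1182 and 927 in WT and no peak in TRα-/-. A region inside usp15, which encodes a deubiquitinating enzyme (chromosome 3, 53245459 to 53245708), had 330, 639 and 760 in WT control and 9 in TRα-/- replicate 1 alone. Both regions were high in the 6 WT libraries and low or absent in all TRα-/- libraries. In contrast, a region inside c6orf136 (chromosome 8, 52501060 to 52501289) had 33, 34 and 130 in WT control and 94 in TRα-/- replicate 3, with T3 peaks of 86 in WT replicate 3 and 55 in TRα-/- replicate 2 only. There TRα-/- control replicate 3 was higher than WT control replicates 1 and 2, and with T3 each genotype had a peak in a single library. Of the 389 strongest TRα-/- regions, 3 lacked a peak in at least 1 WT library.

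Among the 5364 shared regions, pileups were compared between the genotypes with limma on log2 pileup, each library centred on its median over the shared regions. At an adjusted p under 0.05, 7 regions or 0.13% were higher in WT and 0 regions or 0% were higher in TRα-/-. At an unadjusted p under 0.05 the numbers were 198 and 259, an excess in TRα-/- that depended on the scaling, with 230 and 226 under quantile normalization and 165 and 164 with fold enrichment. The 7 regions were higher in WT by 2.29 to 6.66 on the log2 scale. In none did the WT and TRα-/- control libraries overlap, which largely follows from calling them on these same libraries. On simulated pileups with the spread of these libraries, 50 regions were changed at each size. The same fit recovered 12% of those changed by 1 on the log2 scale, 72% by 2, 92% by 3 and 100% by 5. It made 10 false calls among the unchanged regions. The adjusted threshold loosens as more regions change, and more were planted than the 7 called here. Recovery in the real libraries may therefore be lower. A change of 1 was thus mostly not detectable.

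The largest difference lay far from any gene on chromosome 5, from 6443931 to 6444571, 204146 bp from dusp10, which encodes a MAP kinase phosphatase. Its pileup was 623, 1778 and 2662 in WT control, ranks 6, 4 and 4 of all peaks, and 7, 22 and 8 in TRα-/- control, ranks 3630, 1286 and 7070. The difference was 6.66 ± 0.38 on the log2 scale (SE, limma adjusted p = 1.86e-06). The highest TRα-/- value was thus far below the lowest WT value. With T3 it had 500, 1198 and 1067 in WT and 41, 35 and 48 in TRα-/-. Inside pcnxl4, a pecanex family gene (chromosome 8, 82453565 to 82454574, outside the listed exons), the pileup was 363, 960 and 1319 in WT and 3, 9 and 21 in TRα-/- (log2 difference 6.14 ± 0.44, SE, limma adjusted p = 1.38e-05). With T3 it had 269, 612 and 553 in WT and 8, 18 and 26 in TRα-/-. A region 100 bp from the start of hoxb7, a homeobox gene of body axis patterning (chromosome 10, 5098610 to 5098800), had 243, 362 and 443 in WT and 5, 7 and 7 in TRα-/- (log2 difference 5.36 ± 0.31, SE, limma adjusted p = 1.86e-06). With T3 it had 187, 284 and 251 in WT and 22, 13 and 20 in TRα-/-. At all 3 regions the T3 libraries, which the test did not use, kept the same order without overlap. The centred log2 difference with T3 was smaller than without, at 3.25 for the dusp10, 3.71 for the pcnxl4 and 2.58 for the hoxb7 region. The T3 libraries were centred over the 3927 shared regions with a peak in all 12 libraries, the control libraries over all 5364. The change itself was not tested.

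The fourth region named by gene lay 1752 bp from gap43, which encodes a growth cone protein (chromosome 2, 1082762 to 1085681). It had 21, 26 and 68 in WT control and 3, 5 and 7 in TRα-/- control (log2 difference 2.42 ± 0.33, SE, limma adjusted p = 0.00753), and 49, 97 and 97 in WT against 7, 4 and 7 in TRα-/- with T3. The other 3 of the 7, like the dusp10 region, were named after their values were seen. They lay 105065 bp from vangl2 (log2 difference 3.20 ± 0.36), 112415 bp from triqk (3.15 ± 0.31), and inside a gene without a symbol 225529 bp from ephx2 (2.29 ± 0.34). With T3 the centred log2 difference was 2.59 at gap43, 0.75 at vangl2, 0.09 at triqk and 0.96 at ephx2. At triqk the T3 pileups were 99, 130 and 152 in WT and 41, 52 and 70 in TRα-/-, so that little of the difference was left after centring. The gap43 and ephx2 calls did not hold without each of WT replicates 1 and 3 and TRα-/- replicates 1 and 2, and for ephx2 also not without WT replicate 2, with adjusted p between 0.0570 and 0.112. The other 5 stayed past the threshold in all 11 alternatives. With fold enrichment over local background in place of pileup, the differences were smaller, for example 2.01 for the dusp10 and 2.29 for the pcnxl4 region, and the gap43 call was lost (1.24, adjusted p = 0.274).

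**Figure D3:**
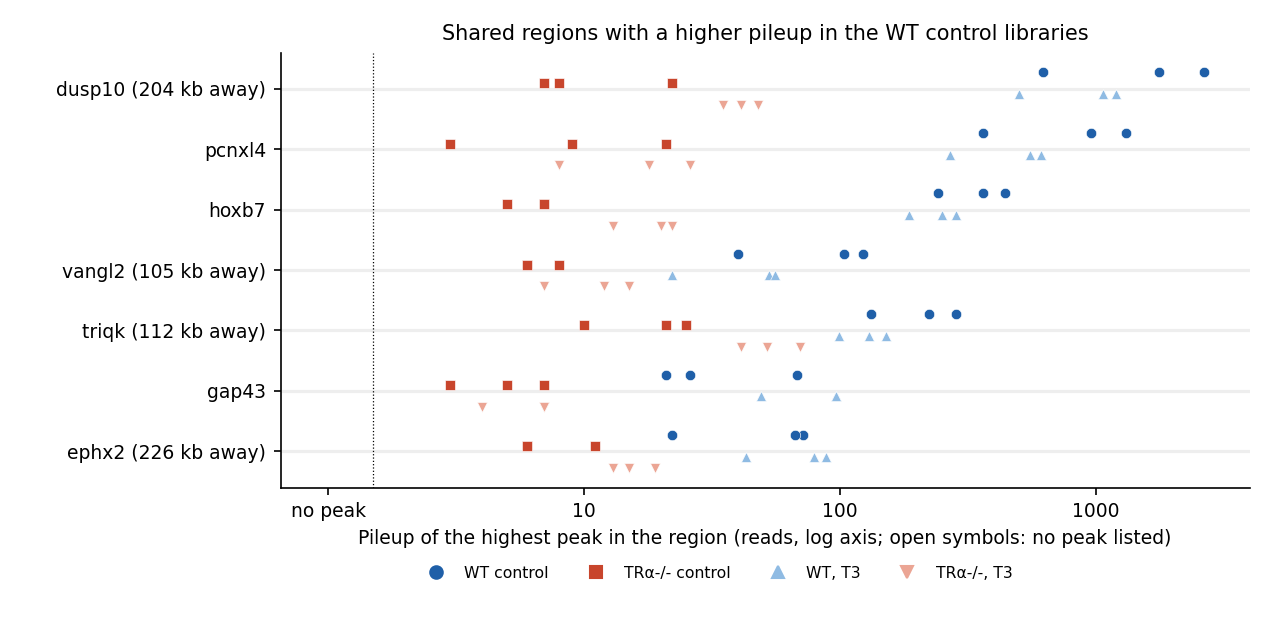
Pileup of the highest peak (x axis, log scale, fragments) in each of the 12 libraries for the 7 shared regions with a higher pileup in WT (y axis, nearest gene with a symbol). Each symbol is a library. The regions were called on the control libraries, and in every row the 3 WT control libraries lie right of the 3 TRα-/- control libraries. In the dusp10 row they lie from 623 to 2662 against 7 to 22.

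The T3 libraries gave a look at the regions that was independent of the rule. WT-only regions were found again in 50.4%, 70.4% and 68.9% of cases in the WT T3 libraries and in 18.2%, 27.2% and 34.4% in the TRα-/- T3 libraries, groups that did not overlap. The means were 63.2% ± 11.2 and 26.6% ± 8.11 (SD, n = 3, exact permutation test, two-sided, p = 0.1, the smallest possible, adjusted p = 0.15 over 3 classes). TRα-/--only regions did not show the opposite order. They were found in 27.7%, 48.9% and 53.2% in WT T3 and in 17.0%, 29.8% and 35.1% in TRα-/- T3, groups that overlapped (exact permutation p = 0.3, adjusted p = 0.3). Shared regions were found in 98.1% ± 1.78 in WT T3 and in 88.5% ± 5.94 in TRα-/- T3 (SD, n = 3, exact permutation p = 0.1, adjusted p = 0.15). Every class thus had the higher mean share in the WT T3 libraries, which had 34933, 40863 and 44567 peaks against 17414, 26018 and 30916. The lowest background level of these libraries was 0.251, 0.523 and 0.664 in WT T3 and 0.149, 0.249 and 0.297 in TRα-/- T3. In another setting only the 17414 strongest peaks of each of the 12 libraries were used, and the classes were formed anew from them. The difference was then 30.1 percentage points for WT-only and 18.1 for TRα-/--only regions. In that setting the libraries of the genotypes did not overlap for either class, with WT higher in both (exact permutation p = 0.1, adjusted p = 0.1, for each). With all peaks, shared regions weighted to the strengths of the 544 WT-only regions were found in 92.8% ± 4.96 in WT T3 and 71.0% ± 10.97 in TRα-/- T3.

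Of the 544 WT-only regions, 195 had a peak in all 3 WT T3 libraries, and 76 of these had none in any TRα-/- T3 library. No WT-only region had the opposite pattern, and 37 had no peak in any T3 library. The same imbalance was present among the 5364 shared regions. There 44 had a peak in all 3 WT T3 and no TRα-/- T3 library, and 1 had the opposite pattern. Of the 94 TRα-/--only regions, 1 had a peak in all 3 TRα-/- T3 and no WT T3 library, while 4 had a peak in all 3 WT T3 and no TRα-/- T3 library. The region in favour of TRα-/- was on chromosome 9 from 3881485 to 3882545, inside a gene without a symbol, with 5, 18 and 12 in TRα-/- control and 8, 13 and 13 in TRα-/- with T3. It was among the 10 strongest TRα-/--only regions, and no WT library of the series had a peak there. A separate region near it on chromosome 9, from 3883742 to 3884330, went the other way. It had 201, 513 and 878 in WT control and 163, 360 and 314 in WT with T3. Its TRα-/- peaks were 6 in control replicate 3 and 11 and 17 in T3 replicates 2 and 3. The neighbouring region was named after its values were seen.

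**Figure D4:**
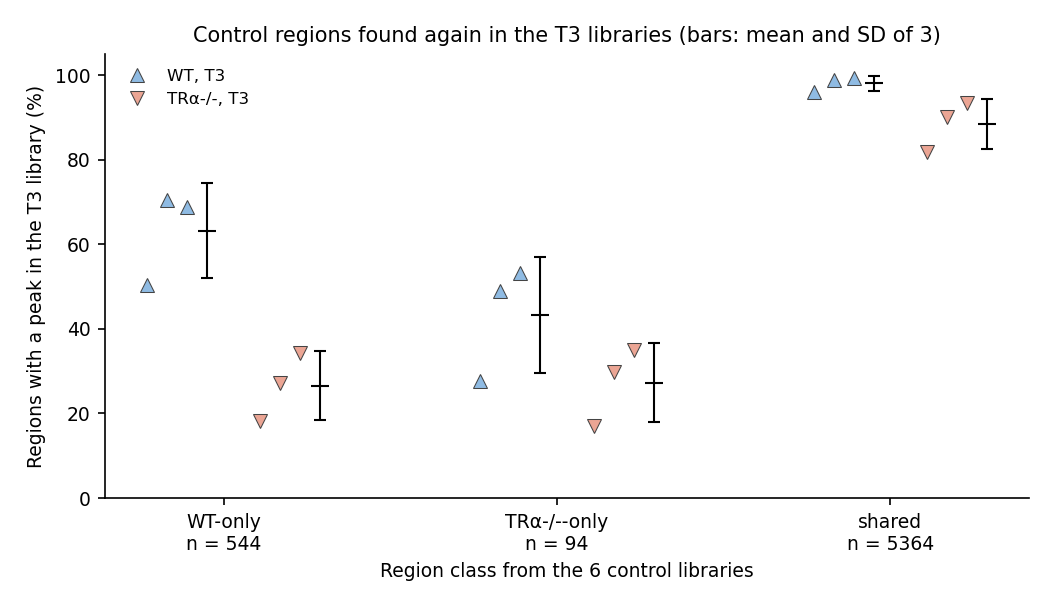
Share of regions of each class (x axis) that also had a peak in a T3 library (y axis, percent). Symbols are the 3 libraries of each genotype and bars the mean and SD. For WT-only regions the WT libraries lie at 50.4% or more and the TRα-/- libraries at 34.4% or less; for TRα-/--only regions the groups overlap.

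The TRα-/--only regions held no high peak. The strongest lay 80000 bp from rttn (chromosome 6, 86133010 to 86133466) with 11, 18 and 20 in TRα-/- control, and had peaks of 14 and 24 in WT T3 replicates 2 and 3. The next lay 43871 bp from znf800 (chromosome 3, 61737074 to 61737263) with 9, 17 and 15, and had peaks of 13 and 19 in WT T3 replicates 1 and 2. The TRα-/- T3 libraries had peaks there too, of 16 in replicate 3 at rttn and of 6 and 11 in replicates 1 and 2 at znf800. Both regions were therefore found with hormone in both genotypes. Those at genes with a symbol lay inside lasp1 (an actin-binding protein gene; 7, 14 and 8), 3915 bp from ostf1 (5, 14 and 12), inside ephx1 (an epoxide hydrolase gene; 6, 12 and 10), 754 bp from the start of wdr81 (6, 7 and 15) and inside fam171a1 (5, 4 and 10). The others of the 10 strongest lay at or beyond 54139 bp from the nearest gene with a symbol, which was npdc1.1 for 2 of them, cpt1a, gbp7 and kitlg. All of these except the kitlg region lay inside genes without a symbol. The listed extent of cpt1a was not a full gene feature, so its distance may be too long. The kitlg region, 54139 bp from the gene of the KIT receptor ligand, had 6, 12 and 11 in TRα-/- control. It had peaks of 11 and 11 in TRα-/- T3 replicates 2 and 3, and higher peaks of 14 and 20 in WT T3 replicates 2 and 3.

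WT-only and shared regions lay at similar positions to genes. Of the WT-only regions, 7.90% lay within 1 kb of a gene start, 36.4% elsewhere inside a gene, 10.1% within 5 kb of a gene and 45.6% farther away. The shares were 6.38%, 30.9%, 11.7% and 51.1% for TRα-/--only regions, 6.75%, 34.3%, 12.2% and 46.8% for shared regions, and 5.20%, 44.4%, 9.81% and 40.6% for all joined regions. Regions far from genes were thus the most frequent kind in all 3 classes. WT-only regions overlapped a listed exon in 1.84% of cases and shared regions in 1.21%. Region width differed more: the median was 591 bp for WT-only, 487 bp for TRα-/--only and 966 bp for shared regions. The higher occupancy of shared regions enters this width, since a joined region spans the peaks of all its libraries. The highest peak within single WT control libraries differed too. For WT-only regions its median width was 284, 365 and 413.5 bp in WT replicates 1, 2 and 3. For shared regions it was 534, 743 and 826 bp in the same libraries. Neighbours within 20 kb numbered 17 among the 544 WT-only regions, and the median distance to the nearest shared region was 41885 bp. Whether this spacing differs from a random placement was not tested.

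**Figure D5:**
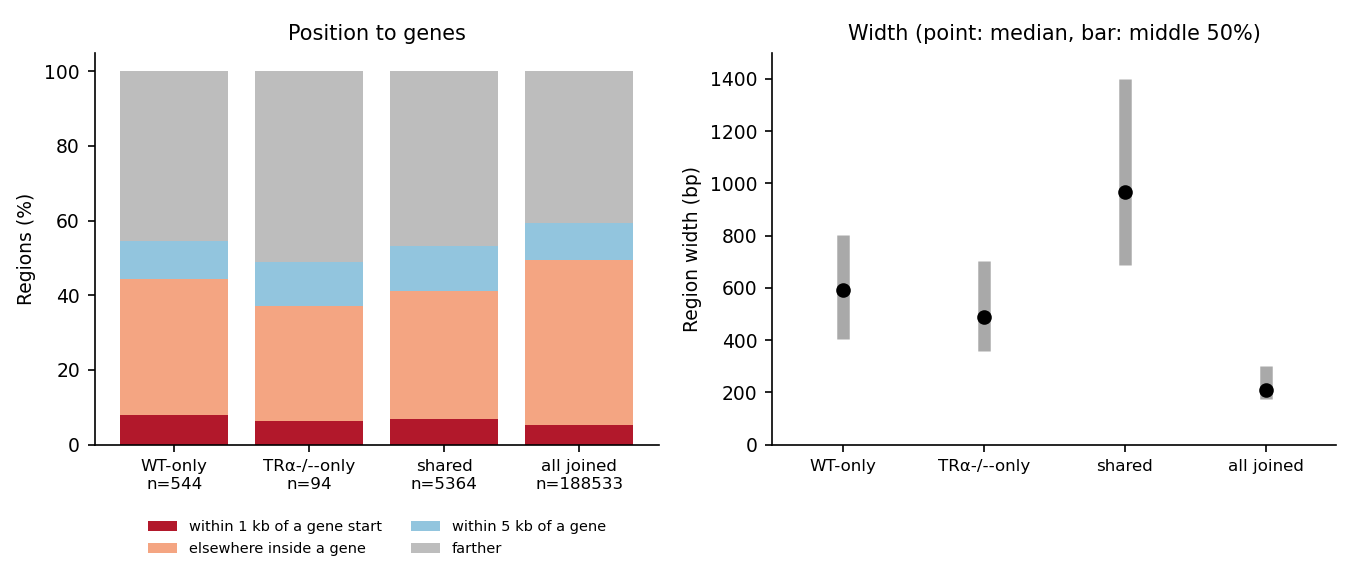
Left, share of regions (y axis, percent) by position to genes for the 3 classes and all joined regions. Right, region width (y axis, bp), with points for medians and bars for the middle 50%. The position bars of WT-only and shared regions are alike, with 45.6% and 46.8% far from genes, while the median width is 591 bp for WT-only and 966 bp for shared regions.

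WT-only regions touched 318 genes, counted within the gene or 5 kb on either side, of the 19768 genes named with the peaks. A shared region was also present at 126 of them, or 39.6%. These genes thus had a ChIP peak listed in both genotypes, at a region other than the WT-only one. Among the 13272 genes with a symbol, 1.72% had a WT-only region, 0.256% a TRα-/--only region and 10.3% a shared region. The median extent of the genes was 37396.5 bp for WT-only, 22045 bp for shared regions and 12694 bp for all genes, and the part of gene length in these shares was not tested.

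Of 33 genes known to respond to thyroid hormone, 1 had a WT-only region (3.03%, against 1.72% of all genes with a symbol), 4 had a shared region (12.1%, against 10.3%) and 0 a TRα-/--only region (against 0.256%). The WT-only region belonged to thibz, the TH/bZip transcription factor gene and a direct T3 target in Xenopus, on chromosome 3 from 129209222 to 129209759, 4399 bp upstream of the gene. Its pileup was 22, 33 and 52 in WT control, and no TRα-/- control library had a peak. With T3 it was 38, 65 and 90 in WT and 19, 17 and 33 in TRα-/-. The thibz region was therefore listed in every library of the series except the 3 TRα-/- control libraries. The 4 genes with a shared region were thrb, fap, cebpb and ncoa3. At thrb, the TRβ gene, a region inside the gene (chromosome 6, 77303571 to 77304324) had 15, 9 and 18 in WT and 4, 7 and 10 in TRα-/- control (log2 difference 0.64 ± 0.43, SE, limma adjusted p = 0.71). A region at the start of thrb (77217469 to 77217785) had 11, 12 and 16 in WT control and 11 and 5 in TRα-/- replicates 2 and 3. With T3 the thrb start region had 14 and 40 in WT replicates 1 and 3 and 16 in TRα-/- replicate 3 alone. Peaks of the TR ChIP at the TRβ gene were thus listed in both genotypes, though not in every library. The start of klf9, a Krüppel-like factor gene induced directly by T3, had peaks of 4 and 8 in WT control replicates 1 and 3 and none in the other 4 control libraries. With T3 the klf9 start had peaks of 10 in WT replicate 3 and of 3 in TRα-/- replicate 1. At fap, which encodes fibroblast activation protein, the pileup was 10, 15 and 23 in WT and 11, 18 and 16 in TRα-/- control, and at ncoa3, a TR coactivator gene, 7, 21 and 51 against 13, 18 and 17. The groups overlapped at both.

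Of 50 cell cycle genes, 3 or 6% had a WT-only region (against 1.72% of all genes with a symbol) and 4 or 8% a shared region (against 10.3%). The WT-only regions were at rbl1, a gene of the retinoblastoma family (596 bp from the start; 11, 7 and 23 in WT control), within 5 kb of mcm3, a subunit gene of the replicative helicase (3, 6 and 4), and inside ccnd2, the cyclin D2 gene (2, 3 and 6). The rbl1 region stood at percentile 94.7 of the WT control libraries, the mcm3 region at 54.3 and the ccnd2 region at 21.3. At rbl1 both genotypes had T3 peaks, of 9 in WT replicate 3 and of 5 in TRα-/- replicates 1 and 3. The mcm3 region lay 1503 bp from mcm3 and slightly nearer, at 1485 bp, to mep1b. Its T3 peaks were 4 and 5 in WT replicates 1 and 3, with none in TRα-/-. The ccnd2 region had a single T3 peak, of 3 in TRα-/- replicate 3. The 4 genes with a shared region were foxm1, cdk1, bub1b and cdc27. Near cdk1, which encodes the kinase that drives entry into mitosis, a region 1062 bp from the gene (chromosome 7, 8471426 to 8472525) had 2, 15 and 22 in WT and 8, 7 and 12 in TRα-/- control (log2 difference -0.41 ± 0.47, SE, limma adjusted p = 0.85). At bub1b, a spindle checkpoint gene, the pileup was 12, 34 and 57 in WT and 20, 32 and 38 in TRα-/- control. The genotypes overlapped at cdk1 and bub1b.

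The remaining lists held 0 or 1 gene with a WT-only region, where 1.72% of all genes with a symbol had one, and in lists of 14 to 35 genes such counts lie near that share. Of 33 Wnt and stem cell genes, 1 (3.03%) had such a region, axin1, a component of the β-catenin destruction complex (3, 9 and 6), and of 26 TGF-β and BMP genes 1 (3.85%), tgfb2, a TGF-β ligand gene (3, 10 and 5). Both genes also held a shared region. No WT-only region lay at the 20 listed genes of TR partners and cofactors or the 14 of hormone transport and metabolism. The 23 genes of hedgehog and 21 of Notch signaling, the 26 of apoptosis and the 30 of the larval epithelium had none either. Nor did the 35 of matrix and metalloproteinases or the 35 nuclear receptor genes. No TRα-/--only region lay at any listed gene, where 0.256% of all genes with a symbol had one. With a share so low, a count of 0 lies near it. Strong shared regions were present inside med1, a Mediator subunit gene (77, 150 and 211 in WT and 120, 137 and 139 in TRα-/- control), and 2152 bp from esrrg, an orphan nuclear receptor gene (73, 151 and 179, and 87, 130 and 127). These 2 examples were chosen after their values were seen. At both the control libraries of the genotypes overlapped.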

How the data were processed

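TR ChIP-Seq peak lists of 12 libraries were used. Paired-end reads had been mapped by the authors with Bowtie2 2.3.4.1 (Xenbase v9.1 assembly) and freed of redundant copies by samtools. MACS2 2.1.1.20160309 then called peaks per library, without input, at a q-value under 0.05. For each peak the authors deposited position and width, the pileup signal at the summit, the fold enrichment ratio over local background, and the −log10 p-value and −log10 q-value. Repeated lines for 1 peak were reduced to 1.

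The 6 control libraries were joined at 1 bp of overlap and placed on gene extents from the lists (69.3% of 19768 genes have a full gene feature, so other extents may be short; 89.6% of gene IDs are in the UCB_Xtro_10.0 gene table, used for names alone). A region's value is its highest peak in a library. No peak listed is not a measured zero. Library-level and T3 shares were compared with exact permutation tests, and shared regions with limma 3.58.1 in R 4.3.3 (log2 pileup, no pseudocount, Benjamini-Hochberg). Python 3.11.15, numpy and pandas were used. Joining and limma were tested on simulated data.

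Genes were named by a rule: the 10 strongest regions of each genotype, the 10 (WT) and 5 (TRα-/-) strongest at genes with a symbol, up to 5 called shared regions in each direction at such genes, the 5 strongest WT-only regions with all WT T3 and no TRα-/- T3 peak, and listed pathway genes with a WT-only or TRα-/--only region (all for hormone response, up to 3 per other list). Shared regions of listed genes were added after their values were seen. Members, lists and tests were chosen with earlier results of these data known. Same-numbered libraries did not deviate together enough to count as pairs.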

Additional observations from a re-analysis of the deposited data

How the results depend on the processing

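The counts of regions moved with the peak threshold and the libraries required. With peaks of a −log10 q-value of at least 5 there were 245 WT-only, 23 TRα-/--only and 2023 shared regions, and with 2 of 3 libraries sufficient 4224, 1746 and 11148. Joining only peaks that overlap by 50% of both gave 3538 shared regions. Without 1 library each, WT-only regions ranged from 761 to 2639 and TRα-/--only regions from 121 to 668. Those among the strongest 1% were chosen as a result after the data were seen. They numbered 18 WT-only regions, with 28 at the stricter threshold, 28 when ranked by fold enrichment and 15 to 24 without 1 library, and 0 TRα-/--only regions, with 3 under the 50% overlap, 1 with 2 of 3 libraries and 0 to 1 without 1 library. The share of WT-only regions far from genes was 45.6%, 55.7% with gene bodies alone and 54.0% with full gene features alone.

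The library-level tests could not pass 0.05 under any alternative with 3 libraries against 3. Under the stricter threshold the TRα-/- minus WT difference changed sign to 2.33 bp for median width, -0.979 percentage points inside genes, 0.355 in flanks and 1.07 far from genes. Without 1 library it ranged from -0.0412 to 0.569 inside genes, from -0.22 to 0.0126 in flanks and from -0.345 to 0.224 far from genes.

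The replicate numbers did not pair the libraries (same-number correlations of 0.0974, 0.0366 and 0.0389 over the 5364 shared regions). With a replicate block limma called 6 regions in place of 7, the ephx2 region being lost at adjusted p = 0.15. In the exact sign-flip permutation test with the replicate block the T3 shares gave p = 0.25 for both classes, the smallest possible for 3 pairs. Limma called 5 to 8 regions under all its alternatives, 0 of them higher in TRα-/-. The T3 share difference of WT-only regions lay between 30.1 and 52.7 percentage points. Causes were not tested, and the number of reads behind a missing peak is unknown.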
